A study of Homo sapiens with 10 samples.

Results

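Desmosomes are the cell junctions that tie the keratin filaments of neighbouring epithelial cells together. The 10 desmosomal genes described here were taken from the RNA-seq table of DU145 cells by their symbols, out of 13527 features. They comprise the plaque genes DSP, JUP, PKP2, PKP3 and PKP4, the desmosomal cadherin genes DSG2, DSC2 and DSC3, and the plakin genes PPL and EVPL. All 10 had a row, and all 10 reached at least 1 CPM (a count scaled to library size) in each of the 6 libraries, so none was in the table through 1 group alone.

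DU145 is an established human prostate cancer line. Its cells carried either a hairpin against SOX4 (shSOX4, genotype SOX4 knockdown, 3 libraries) or a control hairpin (shCon, genotype Scramble, 3 libraries), and no treatment was given to either. SOX4 is a transcription factor of the SOX family, and the study asked what it does in the neuroendocrine differentiation of prostate cancer cells. The labels give neither the hairpin sequences, nor whether more than one hairpin was used, nor whether a line is 1 clone. They also do not say if the 3 libraries of each kind are separate cultures, and every p-value therefore rests on a spread that could be technical. The 4 ATAC-seq libraries of the series (SOX4 overexpression and Vector) were not analysed here.

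Library totals ran from 31189910 to 34784541 counts in shSOX4 and from 36360205 to 43361609 counts in shCon. SOX4 itself had 4.55, 6.44 and 6.01 scaled CPM in shSOX4 1, 2 and 3, against 12.9, 10.1 and 8.48 scaled CPM in shCon 1, 2 and 3, with 53.9% of the mean shCon level remaining (log2 fold change -0.89, adjusted p = 0.0111, edgeR; 0.0598 without shCon 1). The libraries shSOX4 1 and shCon 3 stood apart from the other 4 on the second principal component of log2 CPM (15.7% of the variance), and the edgeR results for the 10 genes and the related gene lists were also computed without them. All 4 markers of epithelial cells (EPCAM, KRT8, KRT18 and CDH1) had a row, with a summed level of 6422 to 7209 scaled CPM in shSOX4 and 2489 to 3646 scaled CPM in shCon, nearly all of it KRT8 and KRT18. EPCAM was called lower in shSOX4, at 5.34, 6.13 and 7.382 scaled CPM in shSOX4 1, 2 and 3 and 10.6, 15.6 and 7.375 scaled CPM in shCon 1, 2 and 3 (log2 fold change -0.83, adjusted p = 0.0279, edgeR). Its groups overlapped through shSOX4 3 and shCon 3, and its fits with a library left out are not given here. Of 6 fibroblast markers 3 had a row (LUM, PDGFRB and COL1A1), summing to 9.55 to 16 scaled CPM in shSOX4 and 1.69 to 2.48 scaled CPM in shCon, with LUM at 0 in shCon 3. Of 4 endothelial markers only CDH5 had a row, at 4.70 to 6.62 scaled CPM in shSOX4 and 0.525 to 0.942 scaled CPM in shCon, and of 5 leukocyte markers only CD14, at 1.99 to 4.40 scaled CPM in shSOX4 and 1.27 to 3.12 scaled CPM in shCon. Every feature has at least 1 CPM in at least 3 libraries, so LUM, PDGFRB and CDH5 were in the table only through shSOX4. They could not have fallen. COL1A1, not bound by this floor, had 7.77, 7.18 and 3.60 scaled CPM in shSOX4 1, 2 and 3. In shCon 1, 2 and 3 it had 1.18, 1.24 and 1.87 scaled CPM (log2 fold change 2.12, adjusted p = 0.00045, edgeR). Whether such cells differed between the groups was not tested. The part of these markers in the results below was not tested.

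In a desmosome, the desmogleins and desmocollins reach across the gap between cells. Inside the cell their tails bind plakoglobin, the product of JUP, and the plakophilins, and these hold desmoplakin, the product of DSP, which grips the keratin filaments. Periplakin (PPL) and envoplakin (EVPL) are relatives of desmoplakin that join the desmosome to the cornified envelope of stratified epithelia. Simple epithelia rely mostly on DSG2, DSC2 and PKP2.

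Of the 5 plaque genes DSP, JUP and PKP2 rose in shSOX4 cells and PKP3 and PKP4 did not pass the test, nor did the 3 desmosomal cadherins or the other plakins. In bulk RNA, a change in the number of cells that hold a transcript and a change in its amount per cell cannot be told apart. DSP rose to 273% of its shCon level, PKP2 to 250.2% and JUP to 227%. With edgeR and adjustment over all features, 3 of 10 members rose and none fell, against 17% of all features that rose and 15.8% that fell. At an unadjusted p under 0.05, 1 member was lower in shSOX4, PKP3, and DESeq2 and limma-voom also called 3 up and 0 down. The 2 groups did not overlap in scaled CPM for 3 of 10 members, against 47% of all features, and shSOX4 was the higher group for these 3, as it was for 23.1% of all features. The share of separated genes in this family was thus not above that of the table. The median log2 fold change was 0.25 over the 10 members and -0.01 over all features.

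**Figure D1:**
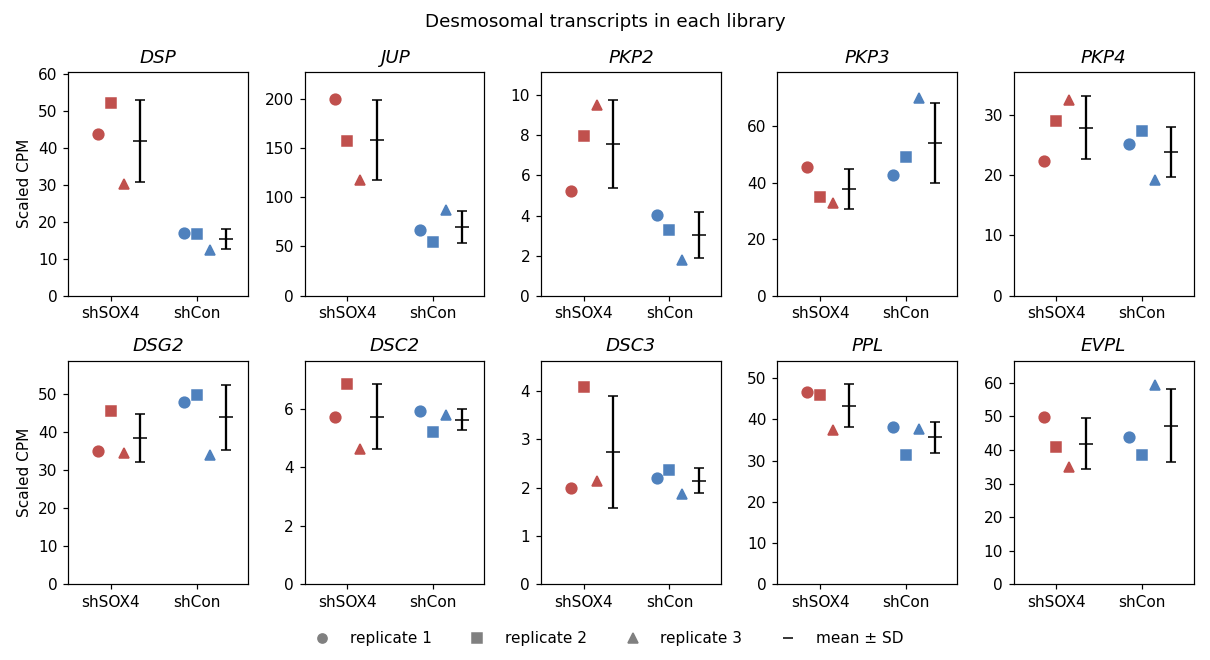
Scaled CPM (vertical axis, from 0, a separate scale per gene) of the 10 desmosomal genes in 3 shSOX4 and 3 shCon libraries. Symbols mark the replicate number and the bar is the mean ± SD of 3 libraries. DSP, JUP and PKP2 lie higher in all shSOX4 libraries than in all shCon libraries, and the groups overlap for the other 7 genes.

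DSP encodes desmoplakin, the link to keratin without which a desmosome bears no load. It had 43.6, 52.0 and 30.1 scaled CPM in shSOX4 1, 2 and 3, against 17.1, 16.6 and 12.3 scaled CPM in shCon 1, 2 and 3. The lowest shSOX4 library, shSOX4 3, stood well above the highest shCon library. The means were 41.9 ± 11.1 scaled CPM in shSOX4 and 15.3 ± 2.63 scaled CPM in shCon (SD, n = 3 each), and the log2 fold change was 1.45 (SE 0.226, 95% interval 0.96 to 1.93, adjusted p = 0.000377, edgeR).

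JUP encodes plakoglobin, an armadillo-repeat protein closely related to beta-catenin that serves in both desmosomes and adherens junctions. Its level was 199, 157 and 118 scaled CPM in shSOX4 1, 2 and 3 and 67.2, 54.4 and 86.8 scaled CPM in shCon 1, 2 and 3. All shSOX4 values lay above all shCon values, and the highest library of each group was one of the pair that stands apart, shSOX4 1 and shCon 3. JUP averaged 158 ± 40.8 scaled CPM in shSOX4 and 69.5 ± 16.3 scaled CPM in shCon (SD, n = 3 each), and its log2 fold change was 1.19 (SE 0.216, 95% interval 0.72 to 1.65, adjusted p = 0.00114, edgeR).

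PKP2, the plakophilin of simple epithelia and heart muscle, rested on fewer counts. It had 178, 258 and 320 counts in shSOX4 1, 2 and 3, which is 5.22, 7.99 and 9.53 scaled CPM, against 184, 122 and 61 counts in shCon 1, 2 and 3, or 4.03, 3.28 and 1.78 scaled CPM. The gap between the lowest shSOX4 and the highest shCon library was narrower than for DSP. Here shSOX4 1 and shCon 3 were the lowest of their groups. The log2 fold change was 1.32 (SE 0.317, 95% interval 0.64 to 1.99, adjusted p = 0.00664, edgeR).

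These 3 rises passed in every setting tried, with log2 fold changes of 1.05 to 1.65 for DSP, 1.00 to 1.38 for JUP and 0.71 to 1.58 for PKP2. Without both shSOX4 1 and shCon 3 the values were 1.29 for DSP, 1.18 for JUP and 1.26 for PKP2. The lowest value for DSP and for PKP2 came from limma on log2(FPKM + 1), a scale that understates changes of genes at low level. The authors' deposited table gives log2 fold changes of 1.37 for DSP (adjusted p = 7.46e-09), 1.12 for JUP (adjusted p = 3.81e-06) and 1.18 for PKP2 (adjusted p = 0.000311). There 3 of 10 members pass, against 37% of all features in the authors' deposited table. DESeq2 on the deposited counts gave adjusted p-values close to these (7.65e-09, 3.83e-06 and 0.000316), so the 2 are not separate evidence.

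The promoters of DSP and JUP, the 2 called members with an entry in RefSeq's table, are shown because their transcripts rose together. Each sequence is the 250 bases before an annotated start, 5′ to 3′ on the gene's strand, from RefSeq on GRCh38.p14; the counts were made on hg19, so these coordinates belong to the sequences and not to the counts. DSP lies at chr6:7541421-7541670 on the plus strand, and JUP has an upstream start at chr17:41786712-41786961 and a downstream start at chr17:41785977-41786226, both on the minus strand. Capitals mark the letters CAGGTG (an E-box, the kind that SNAI and ZEB repressors bind) and GGGCGG (a GC box, the kind that SP1 binds) on either strand.
DSP: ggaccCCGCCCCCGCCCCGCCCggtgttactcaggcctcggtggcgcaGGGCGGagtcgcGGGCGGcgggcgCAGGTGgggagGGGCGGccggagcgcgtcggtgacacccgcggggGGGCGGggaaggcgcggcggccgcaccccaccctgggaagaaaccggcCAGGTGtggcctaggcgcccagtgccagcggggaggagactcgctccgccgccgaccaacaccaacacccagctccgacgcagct
JUP upstream start: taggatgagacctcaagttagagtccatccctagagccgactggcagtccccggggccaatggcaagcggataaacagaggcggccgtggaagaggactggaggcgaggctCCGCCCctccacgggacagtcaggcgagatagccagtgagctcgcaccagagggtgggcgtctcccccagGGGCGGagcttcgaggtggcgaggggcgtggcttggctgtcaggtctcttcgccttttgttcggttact
JUP downstream start: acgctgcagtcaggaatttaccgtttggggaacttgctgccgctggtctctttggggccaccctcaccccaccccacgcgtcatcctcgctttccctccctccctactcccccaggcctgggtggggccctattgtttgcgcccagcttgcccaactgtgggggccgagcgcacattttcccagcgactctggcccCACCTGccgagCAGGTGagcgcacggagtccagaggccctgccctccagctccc

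The DSP window held 7 GC boxes, of which the first 3 overlap one another or lie side by side in one run of capitals, and 2 E-boxes. At the upstream JUP start there were 2 GC boxes and 0 E-boxes, and at the downstream JUP start 0 GC boxes and 2 E-boxes. An E-box stands in 17.5% and a GC box in 42.6% of 35116 RefSeq promoter windows of the same length. Neither was particular to members that rose, since the DSG2 window held 2 of each. The letters AACAAAG, a core of SOX family sites, and AACCGGTT, the site of the Grainyhead factors, were in none of the 9 windows of the 6 members with an entry, and they stand in 4.5% and 0.117% of all windows. No other form of a SOX site was searched, so absence of these letters does not show absence of SOX sites. The DSP window was 78.0% G and C, above the upper quartile of 68.0% of all windows, and the JUP windows had 63.6% at the upstream and 66.0% at the downstream start.

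The other 2 plakophilins measured did not follow PKP2. PKP3, the plakophilin found in nearly all desmosomes, had 45.7, 34.8 and 32.8 scaled CPM in shSOX4 1, 2 and 3 and 42.9, 49.2 and 70.1 scaled CPM in shCon 1, 2 and 3. The groups overlapped through shSOX4 1. Its log2 fold change was -0.52 (SE 0.214, 95% interval -0.97 to -0.06, adjusted p = 0.0766, edgeR). The call depended on which libraries were used: PKP3 passed as lower in shSOX4 without shSOX4 1 (-0.66, adjusted p = 0.0217, edgeR), without shCon 1 (-0.66, adjusted p = 0.0457, edgeR) and without both shSOX4 1 and shCon 3 (-0.44, adjusted p = 0.0230, edgeR), and it was -0.28 without shCon 3 (adjusted p = 0.271, edgeR). PKP4, also called p0071, which sits in adherens junctions as well as desmosomes, ranged from 22.2 to 32.4 scaled CPM in shSOX4 and from 19.1 to 27.2 scaled CPM in shCon (log2 fold change 0.23, 95% interval -0.22 to 0.67, adjusted p = 0.421, edgeR).

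Among the desmosomal cadherins no difference passed. DSG2, the desmoglein of simple epithelia, had 35.2, 45.7 and 34.7 scaled CPM in shSOX4 1, 2 and 3 and 47.9, 49.8 and 34.2 scaled CPM in shCon 1, 2 and 3, so the groups overlapped (log2 fold change -0.19, 95% interval -0.62 to 0.23, adjusted p = 0.483, edgeR). DSC2, the desmocollin of most epithelia, had means of 5.72 ± 1.11 scaled CPM in shSOX4 and 5.63 ± 0.371 scaled CPM in shCon (SD, n = 3 each), with a 95% interval for the log2 fold change of -0.48 to 0.53. DSC3, a desmocollin of basal cells of stratified epithelia, was the member with the fewest counts: 68, 132 and 72 in shSOX4 1, 2 and 3, against 101, 88 and 64 in shCon 1, 2 and 3. After scaling, shSOX4 2 stood alone at 4.09 CPM, the other 2 shSOX4 libraries had 1.99 and 2.14 CPM, and shCon ranged from 1.87 to 2.36 CPM. At this depth the 95% interval of its log2 fold change, -0.38 to 1.08, reaches from a value below 0 to one above 1, so neither a large rise nor no change can be told from these counts.

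DSC2 was the member for which the deposited FPKM (counts scaled to gene length and library size by the authors) and the deposited counts differed. Its FPKM was 0.685, 0.745 and 0.474 in shSOX4 1, 2 and 3 and 0.465, 0.404 and 0.448 in shCon 1, 2 and 3, higher in every shSOX4 library, where the scaled counts overlapped. FPKM per count shifted between the groups by 0.50 on the log2 scale, more than in 98.9% of features, and the other 9 members shifted by -0.05 to 0.08. With limma on log2(FPKM + 0.1) the DSC2 difference was 0.43 and did not pass (adjusted p = 0.240).

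The plakins other than desmoplakin stayed within their spread. PPL, which binds keratin and vimentin filaments, had 46.6, 46.0 and 37.4 scaled CPM in shSOX4 1, 2 and 3 and 38.1, 31.4 and 37.7 scaled CPM in shCon 1, 2 and 3 (log2 fold change 0.28, 95% interval -0.10 to 0.66, adjusted p = 0.244, edgeR). EVPL, its partner in the cornified envelope, ranged from 34.9 to 49.9 scaled CPM in shSOX4 and from 38.4 to 59.3 scaled CPM in shCon (log2 fold change -0.17, 95% interval -0.61 to 0.27, adjusted p = 0.553, edgeR). Both genes had overlapping groups.

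Several members also followed the axis on which shSOX4 1 and shCon 3 stand apart. JUP, PKP3 and EVPL were highest of their group in both of those libraries, and PKP2, PKP4 and DSC3 were lowest of their group in both. The share of all features with such an order was not computed. Over all features the deviations of shSOX4 1 and shCon 3 from their group means correlated at 0.495. DSP, DSG2, DSC2 and PPL showed neither order. What sets the pair of libraries apart is not given in the labels, and its part in these values was not tested beyond leaving the pair out.

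**Figure D2:**
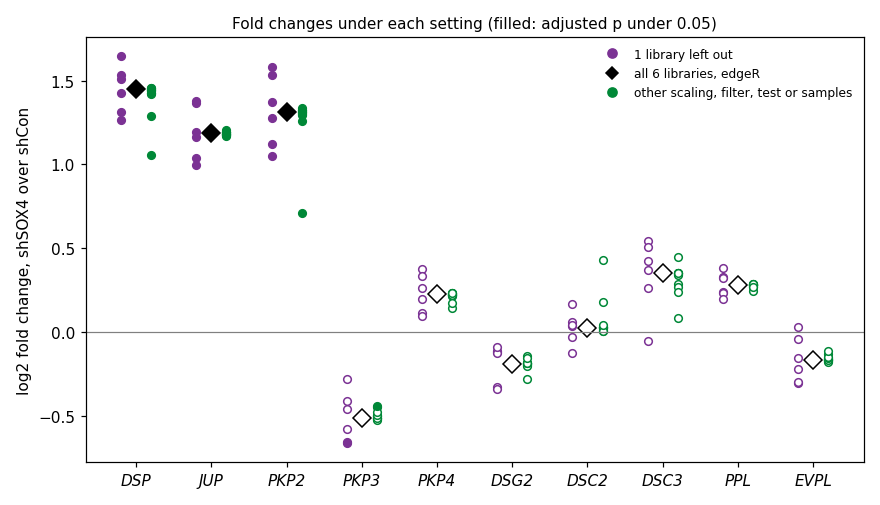
Log2 fold change, shSOX4 over shCon (vertical axis), of each desmosomal gene (along the horizontal axis) with all 6 libraries in edgeR (diamonds), with 1 library left out (purple) and under other scaling, filters, tests or samples (green). Filled symbols have an adjusted p under 0.05: those of DSP, JUP and PKP2 are filled throughout, and 3 of the PKP3 symbols are.

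Levels between genes were compared per length, by FPKM. JUP and PKP3 were the most abundant members in every library, and DSC3 ranked last of the 10 in every library. In shSOX4 JUP averaged 45.9 ± 11.6 FPKM and PKP3 12.7 ± 2.05 FPKM (SD, n = 3 each), with no overlap, whereas in shCon JUP at 19.6 ± 3.56 FPKM and PKP3 at 17.7 ± 3.50 FPKM overlapped. Below them DSG2, EVPL, PPL and PKP4, with means of 5.25 to 6.51 FPKM in shSOX4 and 4.73 to 7.10 FPKM in shCon, overlapped one another in each group. DSP ranked seventh throughout, at 4.29 ± 1.31 FPKM in shSOX4, where it overlapped PKP4, PPL, EVPL and DSG2, and at 1.51 ± 0.377 FPKM in shCon (SD, n = 3 each), where it overlapped none of these. PKP2 had 1.73 ± 0.520 FPKM in shSOX4, above DSC2 at 0.635 ± 0.142 FPKM, and 0.661 ± 0.282 FPKM in shCon (SD, n = 3 each), where it overlapped DSC2 at 0.439 ± 0.0314 FPKM. The summed FPKM of the 10 members was 101, 95.6 and 71.7 in shSOX4 1, 2 and 3 and 64.0, 60.1 and 68.1 in shCon 1, 2 and 3, and JUP made up 46.6 to 55.6% of it in shSOX4 and 26.4 to 33.6% in shCon.

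The make-up of each gene family followed these levels. PKP2 was 5.65, 9.30 and 11.7% of the summed FPKM of the 3 plakophilins in shSOX4 1, 2 and 3 and 4.34, 3.12 and 1.39% in shCon 1, 2 and 3, a minor part in all libraries beside PKP3 at 58.9 to 72.7% in shSOX4 and 71.1 to 85.5% in shCon. DSP was 23.6, 29.7 and 22.5% of the 3 plakins in shSOX4 1, 2 and 3 and 12.7, 13.7 and 7.71% in shCon 1, 2 and 3. Among the 3 cadherins DSG2 held 85.4 to 88.2% in shSOX4 and 88.3 to 91.9% in shCon, so the cadherin transcripts were mostly of 1 desmoglein in both groups. The lower DSG2 share in shSOX4 includes the DSC2 shift of FPKM against counts (0.50 on the log2 scale). By scaled counts the ratio of DSC2 to DSG2 overlapped between the groups.

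**Figure D3:**
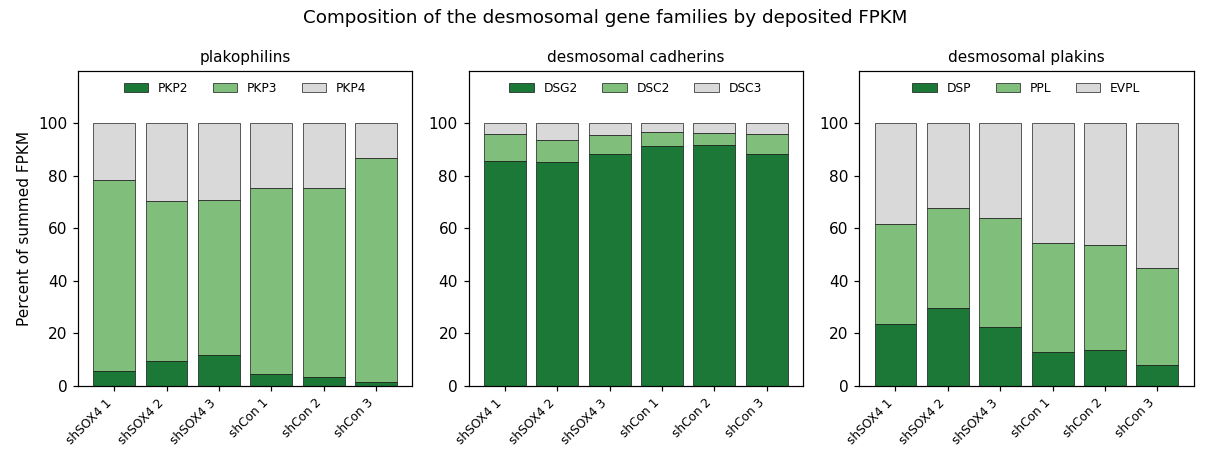
Percent of the summed deposited FPKM (vertical axis) that each gene holds within the plakophilins, the desmosomal cadherins and the desmosomal plakins, 1 bar per library, shSOX4 left and shCon right. The dark DSP part of the plakins is 22.5 to 29.7% in shSOX4 and 7.71 to 13.7% in shCon, and DSG2 is over 85% of the cadherins in each library.

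Ratios within a library, which do not depend on library scaling, were compared for 9 pairs with a two-sided exact permutation test over the 6 libraries. With 3 against 3 libraries that test cannot go below 0.10, so no ratio can pass 0.05. The log2 ratio of PKP2 to PKP3 was -3.13, -2.12 and -1.79 in shSOX4 1, 2 and 3 and -3.41, -3.91 and -5.30 in shCon 1, 2 and 3. All shSOX4 values lay above all shCon values (difference 1.86, exact p = 0.10, adjusted over 9 ratios 0.18). The groups were also separate, with the same p, for 4 more ratios: DSP to PPL by 1.15, PKP2 to PKP4 by 1.13, DSC3 to DSG2 by 0.46 and PPL to EVPL by 0.44 on the log2 scale. Ratios with PKP2 or DSP on top rest on the same counts as the rises given above and add nothing separate to them. Of single features 47% had separate groups, and the share among ratios of other gene pairs was not computed. The ratio of JUP to CTNNB1, the gene of beta-catenin, was -0.04 ± 0.773 in shSOX4 and -1.05 ± 0.777 in shCon (SD, n = 3 each), and the groups overlapped through shSOX4 3 and shCon 3 (exact p = 0.20). Of the rest, PKP4 to PKP3 differed by 0.73 (exact p = 0.30), DSC3 to DSC2 by 0.27 (exact p = 0.40) and DSC2 to DSG2 by 0.19 (exact p = 0.50), each with overlap.

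Of 7 further genes tied to desmosomes only PKP1 and PERP had a row, and DSG1, DSG3, DSG4, DSC1 and CDSN were not analysed here. PERP, a membrane protein needed for desmosomes in stratified epithelia, was at 46.6, 44.7 and 51.2 scaled CPM in shSOX4 1, 2 and 3 and 78.6, 70.9 and 57.4 scaled CPM in shCon 1, 2 and 3. PERP was lower in shSOX4, by a log2 fold change of -0.54 (SE 0.176; edgeR adjusted p = 0.0308). That call held in only 1 of the 6 fits that left out 1 library, the one without shCon 3, with values of -0.59 to -0.43 in the other 5, and limma on log2(FPKM + 1) did not call it either (adjusted p = 0.0645). PKP1, the plakophilin of stratified epithelia, had a value of -0.58 (adjusted p = 0.155, edgeR) at 1.95 to 2.23 scaled CPM in shSOX4 and 2.45 to 3.94 scaled CPM in shCon.

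In adherens junctions, the actin-linked partners of desmosomes, 3 of 10 measured members fell and 1 rose, against 15.8% of all features that fell and 17% that rose, with a median log2 fold change of -0.19 over the list and -0.01 over all features. The lists below are to be read against the same shares and median. The number up was 0 without shCon 2, shSOX4 2 or shSOX4 3, and with limma on FPKM. CDH1, the gene of E-cadherin, had 4.49, 4.74 and 2.41 scaled CPM in shSOX4 1, 2 and 3 and 10.6, 8.95 and 8.66 scaled CPM in shCon 1, 2 and 3. Its log2 fold change was -1.28 (SE 0.268, adjusted p = 0.00290, edgeR). CDH3, the gene of P-cadherin, fell to 30.0 ± 7.48 scaled CPM in shSOX4, against 56.6 ± 8.77 scaled CPM in shCon (SD, n = 3 each; log2 fold change -0.91, adjusted p = 0.00541, edgeR). ARVCF, a catenin related to the plakophilins, fell by 0.77 on the log2 scale (adjusted p = 0.0153, edgeR), a call lost without shSOX4 2 (adjusted p = 0.0703) and without shSOX4 3 (adjusted p = 0.0761). VCL, the gene of the actin linker vinculin, rose by 0.48 (adjusted p = 0.0274, edgeR), also lost without shSOX4 2 (adjusted p = 0.140), shSOX4 3 (adjusted p = 0.0520) or shCon 2 (adjusted p = 0.0880). CTNNB1, the paralog of JUP, had 163 ± 43.5 scaled CPM in shSOX4 and 146 ± 44.3 scaled CPM in shCon (SD, n = 3 each) and did not pass (log2 fold change 0.16, adjusted p = 0.630, edgeR).

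**Figure D4:**
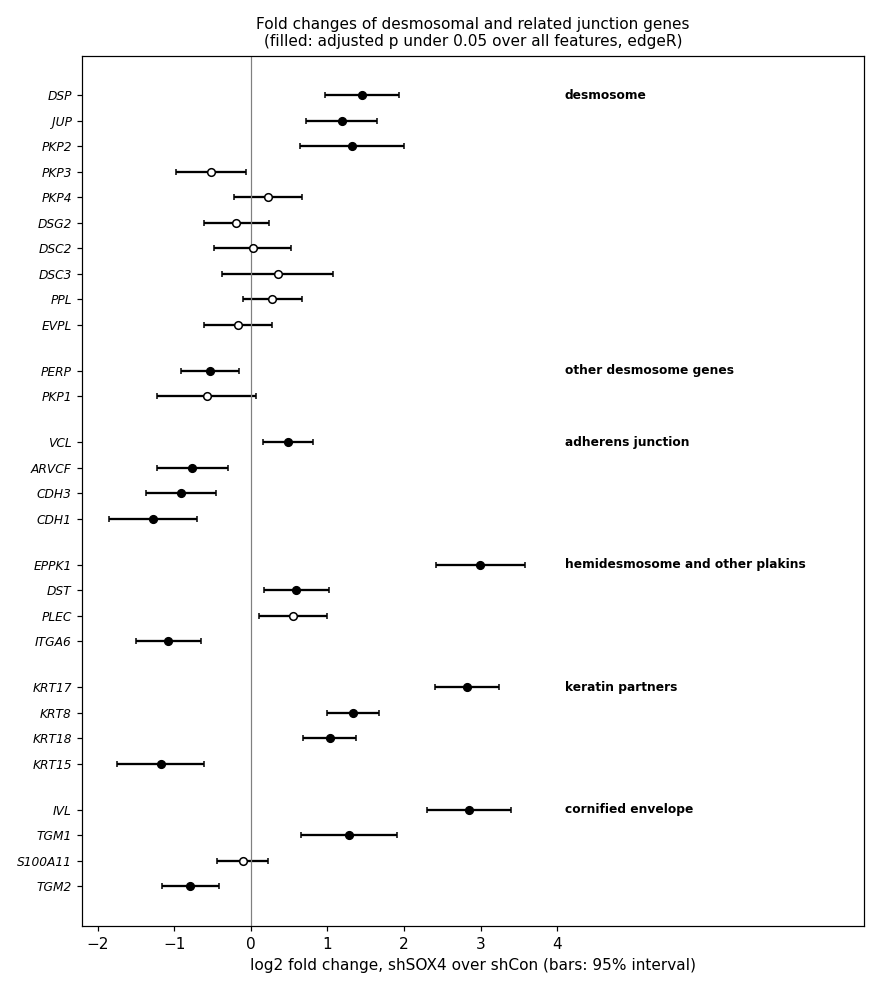
Log2 fold change, shSOX4 over shCon (horizontal axis), with its 95% interval from edgeR for the 10 desmosomal genes and up to 4 measured genes of each related junction, plakin, keratin and envelope list, those with the smallest adjusted p. Filled points have an adjusted p under 0.05 over all features. DSP, JUP and PKP2 lie at 1.19 to 1.45, CDH1, CDH3 and ARVCF at -1.28 to -0.77.

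Keratins, the filaments that desmoplakin holds, had 3 of 9 measured members up and 1 down, against 17% and 15.8% of all features, with a median log2 fold change of 0.06. KRT8 and KRT18, the pair of simple epithelia, rose by 1.33 (adjusted p = 3.98e-05, edgeR) and 1.03 (adjusted p = 0.000406, edgeR) on the log2 scale. KRT17 had 242 ± 20.1 scaled CPM in shSOX4 and 34.2 ± 8.50 scaled CPM in shCon (SD, n = 3 each), a rise of 2.82 (adjusted p = 2.36e-07, edgeR), and the basal KRT15 fell by 1.18 (adjusted p = 0.00458, edgeR). These 4 calls held in each fit that left out 1 library; KRT15 was no longer called by limma on log2(FPKM + 1) (adjusted p = 0.0613) or log2(FPKM + 0.1) (adjusted p = 0.0725). Keratins have processed pseudogenes and close relatives, and how such reads were divided is unknown here. Without shSOX4 1, and without both shSOX4 1 and shCon 3, 2 keratins fell.

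Among hemidesmosome genes and other plakins 2 of 8 rose and 1 fell, against 17% and 15.8% of all features, with a median log2 fold change of 0.46. EPPK1, epiplakin, a plakin that binds keratin, had the largest log2 fold change of the 8, at 24.1, 15.1 and 17.6 scaled CPM in shSOX4 1, 2 and 3 and 2.67, 1.59 and 2.83 scaled CPM in shCon 1, 2 and 3 (log2 fold change 3.0, SE 0.274, adjusted p = 2.63e-06, edgeR). DST, the gene of the hemidesmosomal plakin BPAG1, rose by 0.59 (adjusted p = 0.0344, edgeR) with all libraries, and its call was lost without shSOX4 2 (adjusted p = 0.207), shCon 1 (adjusted p = 0.0710) or shCon 2 (adjusted p = 0.109), and neither total count scaling (adjusted p = 0.0511) nor limma on log2(FPKM + 1) called it (adjusted p = 0.177). PLEC, the gene of plectin, had 0.55 and did not pass (adjusted p = 0.0561, edgeR), although it did with DESeq2 (adjusted p = 0.0434) and limma-voom (adjusted p = 0.0400), and, in edgeR, on leaving out shSOX4 3 (adjusted p = 0.0491), shCon 3 (adjusted p = 0.00218) or both shSOX4 1 and shCon 3 (adjusted p = 0.000987). ITGA6, the laminin receptor chain of the hemidesmosome, fell to 11.2 ± 0.965 scaled CPM in shSOX4, against 23.7 ± 4.07 scaled CPM in shCon (SD, n = 3 each; log2 fold change -1.08, adjusted p = 0.00123, edgeR). The number up in this list was 1 without shCon 1, shCon 2 or shSOX4 2, and 4 with DESeq2 and without shCon 3, alone or together with shSOX4 1. The number down was 2 with DESeq2, with total count scaling, without shCon 1, without shSOX4 1 or without both shSOX4 1 and shCon 3.

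Of 11 genes of the cornified envelope, the structure that PPL and EVPL scaffold, 4 had a row. With all libraries, and in each fit with a library left out, 2 of the 4 rose and 1 fell, against 17% and 15.8% of all features, and the median log2 fold change was 0.58. IVL, the gene of involucrin, had 9.59, 7.49 and 9.82 scaled CPM in shSOX4 1, 2 and 3 and 1.31, 1.21 and 1.20 scaled CPM in shCon 1, 2 and 3 (log2 fold change 2.85, SE 0.257, adjusted p = 2.29e-06, edgeR). TGM1, the keratinocyte transglutaminase that crosslinks the envelope, rose by 1.28 (adjusted p = 0.00491, edgeR). TGM2, the tissue transglutaminase, fell by 0.79 (adjusted p = 0.00388, edgeR), and S100A11 had a value of -0.11 (adjusted p = 0.625, edgeR).

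Regulators of epithelial identity gave 1 rise and 1 fall among 7 measured, against 17% and 15.8% of all features, with a median log2 fold change of 0.24. ZEB2, a repressor of epithelial genes, had 1.99, 3.65 and 2.23 scaled CPM in shSOX4 1, 2 and 3 and 0.394, 0 and 0.0583 scaled CPM in shCon 1, 2 and 3, and its fitted log2 fold change of 3.98 (adjusted p = 0.000737, edgeR) depends on very few shCon counts. It was in the table only through shSOX4 and could not have fallen. KLF4, an epithelial differentiation factor, fell by 0.87 on the log2 scale (adjusted p = 0.0211, edgeR); the call did not hold without shSOX4 1 (adjusted p = 0.0501), shSOX4 3 (adjusted p = 0.0806) or shCon 1 (adjusted p = 0.0885), or with limma on log2(FPKM + 0.1) (adjusted p = 0.0510). ZEB1 had a value of 0.40 (adjusted p = 0.357, edgeR) and KLF5 one of 0.26 (adjusted p = 0.309, edgeR).

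Among genes of desmosome turnover and signalling 1 of 14 rose and 2 fell, not above the 17% and 15.8% of all features, with a median log2 fold change of -0.18. CLTC, the clathrin heavy chain of endocytosis, rose by 0.70 (adjusted p = 0.0130, edgeR), lost without shSOX4 2 (adjusted p = 0.114). FLOT1, the gene of flotillin-1, a raft protein, fell by 0.55 (adjusted p = 0.0223, edgeR) and ADAM15, a membrane protease, by 0.51 (adjusted p = 0.0479, edgeR), and both calls were lost without shSOX4 2 and without shSOX4 3, that of ADAM15 also without shCon 3 (adjusted p = 0.156) and with RLE scaling (adjusted p = 0.0591). DNM2, the gene of dynamin 2, did not pass at -0.48 (adjusted p = 0.0590, edgeR). The number down in this list was 0 without shSOX4 2 or shSOX4 3, 4 without shSOX4 1 and 5 without both shSOX4 1 and shCon 3, and the number up was 0 without shSOX4 2, 2 without shSOX4 1 or shCon 1, and 3 with DESeq2 and without both shSOX4 1 and shCon 3. Scaling also moved the number down, to 1 with RLE and 4 with total counts.

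The genes whose pattern over the 6 libraries lay nearest to that of DSP were TBX3, AFF4 and FAT1, among 10169 other features with a mean of at least 5 CPM. Likeness was the root mean square difference of log2 CPM after centring each gene on its mean, which was 0.0909 for TBX3, 0.104 for AFF4 and 0.122 for FAT1, against 0.396 for JUP and 0.466 for PKP2. No member was among the 3, and 509 features lay nearer than JUP and 901 nearer than PKP2, DSP itself included. TBX3 had 11.3, 14.1 and 8.22 scaled CPM in shSOX4 1, 2 and 3 and 4.75, 4.27 and 3.82 scaled CPM in shCon 1, 2 and 3. The order of libraries within each group was that of DSP, which the choice by likeness favours. In the genome, RIOK1 and SNRNP48, the coding genes that flank DSP, had log2 fold changes of 0.60 (adjusted p = 0.0457, edgeR) and 0.35 (adjusted p = 0.262, edgeR), and HAP1 and P3H4, which flank JUP, had -0.25 (adjusted p = 0.653, edgeR) and -0.24 (adjusted p = 0.409, edgeR). DSG2, DSC2 and DSC3 lie on chromosome 18, where desmogleins and desmocollins form a cluster, and all 3 were among the members that did not pass.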

How the data were processed

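Values came from 1 deposited table holding 3 shSOX4 and 3 shCon RNA-seq libraries of DU145 cells, whose columns SH and NC with numbers 1 to 3 were read as shSOX4 and shCon. Per the file headers, the table holds raw counts, FPKM that the authors normalized for length and depth, and the authors' own adjusted p-value and log2 fold change. For both assays at once, the submitters' processing notes list hg19 and the tools HISAT2, STAR, Bowtie2, MACS2 2.1.1 and deepTools 2.07. The sources used here do not give the authors' test, the counting tool, the strand setting or the annotation, and 7 of the 10 members overlap another annotated gene, none of which has a row. Every feature has at least 1 CPM in at least 3 libraries.

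Group differences were fitted over all 13527 features by the two-sided quasi-likelihood F test of edgeR 4.0.16 (R 4.3.3), after TMM scaling and filterByExpr, which removed none. Group was the only term, and features were called at a Benjamini-Hochberg adjusted p under 0.05. Scaled CPM uses TMM, and standard errors and 95% intervals come from that test. The fit was tested on simulated data. DESeq2 1.42.0 and limma 3.58.1 served as alternatives. Genes beside the members were named by a rule, up to 4 per list with the smallest adjusted p. The members and lists were chosen with earlier results of these data known. Libraries of a group were not duplicates (chi-square per degree of freedom 28.8 to 139). The E-box, GC box, SOX and Grainyhead letters were searched on both strands of RefSeq's promoter windows (GRCh38.p14).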

Additional observations from a re-analysis of the deposited data

How the results depend on the processing

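The calls of DSP, JUP and PKP2 held in all 17 alternatives, and the number of members up was 3 in each. The alternative without a filter is the main fit itself, since filterByExpr removed no feature, and it adds nothing separate. The number down was 0 to 1 when 1 library was left out (PKP3, on leaving out shCon 1 or shSOX4 1), and 1 on leaving out shSOX4 1 and shCon 3 together. The number of features changed was 4431, 5532 without both libraries and 2509 to 4966 when 1 was left out (2509 without shSOX4 2). Small values that did not pass changed sign: with 1 library left out DSC2 ran from -0.12 (without shSOX4 2) to 0.17 and was -0.03 without shCon 2, DSC3 ran from -0.055 (without shSOX4 2) to 0.54, EVPL ran from -0.30 to 0.030 (without shCon 3), and the DSC3 to DSC2 ratio differed by -0.21 with deposited FPKM; the cause was not tested. Same-numbered libraries deviated with correlations of -0.29, 0.16 and -0.29, and the highest value, 0.495, was that of shSOX4 1 with shCon 3. These values show no pairing by number, but they cannot tell which libraries were prepared together. With the replicate number as a block 3374 features changed, 3 members rose and 0 fell; of the other named genes VCL (adjusted p = 0.111), PERP (0.111), DST (0.104) and ADAM15 (0.0895) lost their calls and PLEC gained one (0.0467), so no adherens junction gene rose. For PKP2 and DSC3 depth limits the precision. The settings for the related lists were added after seeing the data.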
